A study of Mus musculus with 52 samples.

Results

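The nuclear genes for subunits of the oxidative phosphorylation complexes were examined for methylation of lysine 4 of histone H3 (H3K4) in mouse fibroblasts with and without MLL2. They were chosen by symbol (Nduf, Sdh, Uqcr, Cox4 to Cox8, and Atp5 genes, without pseudogenes), 1 transcript per gene, the longest, and gave 84 of the 23043 genes in the tables. Complex I accounted for 35 of them, complex II for 4, complex III for 8, complex IV for 20, and complex V for 15, and the last 2, Atp5s and Atp5sl, encode proteins named after the ATP synthase that are not subunits of its core. No mitochondrially encoded subunit was listed in the tables. Of the 84 genes, 8 encode isoforms known for restricted expression (Cox4i2, Cox6a2, Cox6b2, Cox7a1, Cox7b2, Cox8b, Cox8c, and Ndufa4l2), and the other 76 are called widespread here.

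Oxidative phosphorylation takes place in the inner mitochondrial membrane. Complexes I and II pass electrons from NADH and succinate to ubiquinone, complex III passes them to cytochrome c, and complex IV passes them to oxygen, while the proton gradient built by complexes I, III, and IV drives ATP synthesis by complex V. Most subunits are encoded in the nucleus and transcribed in nearly every cell from CpG-rich promoters, where H3K4 trimethylation (H3K4me3) covers the start of active genes and H3K4 monomethylation (H3K4me1) lies at the flanks and at enhancers. MLL2, encoded by Kmt2d in the mouse, is an H3K4 methyltransferase known mainly for monomethylation at enhancers.

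ChIP-seq libraries of H3K4me1, H3K4me2, and H3K4me3 were made from FC/FC and F/F cells, with 3 libraries per mark and genotype, 18 in all. Both genotypes came from immortalized MEFs, that is, fibroblasts of mouse embryos, whose MLL2 alleles both carry loxP sites. FC/FC cells had received tamoxifen for a day to excise the floxed MLL2 sequence, and F/F cells are labelled as having had no treatment, so the effects of tamoxifen and of MLL2 loss cannot be told apart. The 3 libraries of a genotype are described as independent experiments, but the labels do not say whether they came from separate lines, and p-values measure the spread between these libraries. The levels are RPKM over each RefSeq transcript with 500 bp added at either end, as deposited, with no correction for H3.

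Reads recovered from the RPKM and summed over the listed transcripts came to 31253262 to 38871331 per library in FC/FC and 26714377 to 30528079 in F/F cells for H3K4me1, 31514831 to 49990775 and 36376215 to 48504887 for H3K4me2, and 31113989 to 33574912 and 29716371 to 48469734 for H3K4me3. Reads outside these transcripts are not in the sums, and those under overlapping transcripts can count more than once. An RPKM above 1 for H3K4me3 was found at 7 of 8 fibroblast marker genes in FC/FC and 6 of 8 in F/F cells, and at none of 4 endothelial, 4 epithelial, 4 haematopoietic, 4 muscle, or 4 neural markers in either. Kmt2d itself carried 2.79 ± 0.13 RPKM of H3K4me3 in FC/FC and 2.63 ± 0.19 in F/F cells (SD, n = 3 each), a measure of its chromatin that does not check the deletion. The antibody label of NGS-6282, an H3K4me2 library of FC/FC cells, names H3K4me2 but carries the catalogue number given for H3K4me1 in the other libraries. Across genes it correlated with the remaining H3K4me2 libraries at a Spearman coefficient of 0.990 to 0.992, and with those of H3K4me1 at 0.822 to 0.857. H3K4me2 results are given with and without it.

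H3K4me3 was high at the widespread genes and below 1 RPKM at each of the restricted isoforms. In bulk chromatin, a mark on fewer cells and less of it per cell cannot be told apart. The median H3K4me3 level was 7.14 RPKM in FC/FC and 6.93 RPKM in F/F cells over the 76 widespread genes, and 0.261 RPKM in FC/FC and 0.306 RPKM in F/F cells over the 8 restricted ones. Over all genes the medians were 0.448 and 0.452 RPKM. The RPKM of H3K4me1 did not separate the groups in this way. Its median was 1.41 RPKM in FC/FC and 1.25 RPKM in F/F cells at widespread genes, and 1.28 and 1.37 RPKM at restricted isoforms. The median transcript length of these groups differs, at 7078 and 1682.5 bp. H3K4me1 peaks did separate them. A peak within 1 kb of the start was found at 90.8% of widespread genes in FC/FC and 85.1% in F/F cells. At restricted isoforms these shares were 20.8% and 33.3%. The genes for mitochondrial ribosomal proteins (77 genes) had H3K4me3 medians of 6.84 RPKM in FC/FC and 6.92 RPKM in F/F cells, near those of the widespread genes, and the proteasome genes (50 genes) 4.38 and 4.29 RPKM.

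In F/F cells, H3K4me3 exceeded H3K4me1 at 75 of the 76 widespread genes and lay below it at 7 of the 8 restricted isoforms when all 23043 genes were fitted without a filter on RPKM, with 3 of the widespread genes turning to lower under quantile normalization of the filtered genes (limma on log2(RPKM + 0.1), adjusted p under 0.05 by the method of Benjamini and Hochberg). In that fit 43.7% of all genes were called higher and 41.3% lower. The exceptions were Ndufs4, at 0.04 (SE 0.07, limma adjusted p = 0.577), and Cox7b2, which was higher for H3K4me3 at 0.29 (SE 0.09, adjusted p = 0.0171) with a mean below 0.1 RPKM for both marks. The median log2 difference was 2.48 over the widespread genes, from 0.04 to 4.21, and -1.37 over the restricted isoforms, against 0.08 over all genes. It was 2.45 for complex I, 1.75 for complex II, 2.69 for complex III, and 2.72 for complex V, and for complex IV, which holds the restricted isoforms, 2.16.

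With the filter, which kept genes where 3 or more of the 6 libraries exceeded 1 RPKM, 11358 genes were left, of which 67.9% were called higher and 28.1% lower, and 80 members, of which 75 were called higher and 5 lower. The 5 restricted isoforms among them passed through H3K4me1 alone, so that their direction was set by the filter, and 23 of the 75 widespread genes passed through H3K4me3 alone. The other 52 widespread genes were above 1 RPKM for both marks. When 1 H3K4me3 library was left out, 54 widespread genes and 5 restricted isoforms still passed this filter, and when 1 H3K4me1 library was left out, 75 and 0. Each gene that passed kept its call.

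Since RPKM are scaled within each library, this difference is relative to the total of each mark. When libraries were centred on their medians, the median of all genes that passed the filter was 0.33, in place of 1.10, and that of the 80 members 1.65, with 74 members called higher and 5 lower (53.8% and 39.1% of all genes), and Atp5s no longer called at 0.08. Under quantile normalization these medians were 0.26 and 1.13, with 66 members called higher and 8 lower (51.2% and 40.9% of all genes). The widespread Atp5d (-0.84), Ndufa13 (-0.67), and Atp5s (-0.18) turned to a lower call under quantile normalization.

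**Figure D1:**
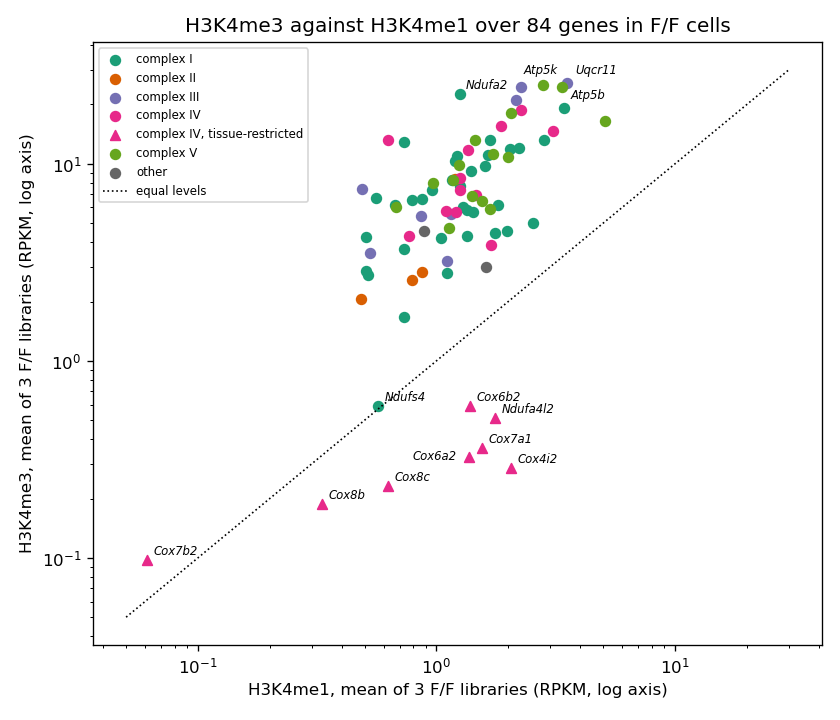
H3K4me3 (y axis) against H3K4me1 (x axis) over the 84 genes, each as the mean of 3 F/F libraries in RPKM on log axes, with complexes by color and restricted isoforms as triangles. The 8 restricted isoforms lie below 1 RPKM of H3K4me3, whereas 75 of the 76 widespread genes lie above it, with Ndufs4 at 0.589 RPKM as the exception.

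The 5 genes with the highest H3K4me3 in F/F cells were Uqcr11, Atp5k, Uqcr10, Atp5b, and Ndufa2. Uqcr11, for a small subunit of complex III (chr10:80402997-80406821 in mm10, minus strand), had 24.5, 27.1, and 25.2 RPKM in the FC/FC libraries and 23.5, 27.1, and 26.7 RPKM in the F/F libraries. Atp5b, for the catalytic beta subunit of ATP synthase (chr10:128083307-128090388, plus strand), had 23.8, 25.1, and 23.8 RPKM in FC/FC and 23.6, 24.5, and 25.5 RPKM in F/F cells. For both genes the genotypes overlapped throughout their range. Ndufa2, a small subunit of complex I, stood furthest from its H3K4me1 among these 5, with a log2 difference between the marks of 4.08 (SE 0.08, limma adjusted p = 1.44e-11) in F/F cells.

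The catalytic and defining subunits of the complexes spread over much of the range. Among complex I genes, Ndufs1, for the largest iron-sulfur subunit, had 2.83 ± 0.16 RPKM of H3K4me3 in FC/FC and 2.85 ± 0.015 RPKM in F/F cells (SD, n = 3 each), and Ndufv1, for the NADH-binding subunit, had 8.08 ± 0.19 and 7.70 ± 0.42 RPKM. In complex II, Sdha, for the flavoprotein that oxidizes succinate, had 2.03 ± 0.024 RPKM in FC/FC and 2.07 ± 0.0064 RPKM in F/F cells. Sdha was the lowest of the 4 complex II genes. Uqcrfs1, for the Rieske iron-sulfur protein of complex III, had 6.14 ± 1.2 RPKM in FC/FC and 5.56 ± 0.58 RPKM in F/F cells, with the highest value, 7.41, in a single FC/FC library. Cox5a and Cox5b, subunits of complex IV, had 3.87 and 19.7 RPKM in FC/FC and 3.87 and 18.7 RPKM in F/F cells. The 3 genes that encode the same c-ring subunit of ATP synthase differed among themselves, with F/F means of 18.1 RPKM at Atp5g1, 13.2 at Atp5g3, and 5.93 at Atp5g2, and no overlap between any of the 3 across libraries.

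Much of this spread went with transcript length. H3K4me3 is known to sit at the start of a gene, and RPKM divides by the whole window. Over the 76 widespread genes the Spearman correlation of transcript length with RPKM in F/F cells was -0.87 for H3K4me3, -0.82 for H3K4me2, and -0.49 for H3K4me1, a description over genes that share the same libraries. The extremes show this. Atp5k (1126 bp, chr5:108433253-108434378, minus strand), a small subunit of ATP synthase, had 25.0 RPKM in F/F cells, and Ndufs4 (100300 bp, chr13:114287795-114388094, minus strand), an accessory subunit of complex I, had 0.589 RPKM. Counted as RPM in the window, that is, RPKM multiplied by the length of the window in kb, the same genes held 53.2 and 59.6 RPM. On that scale the widespread genes ran from 31.1 at Ndufa1 to 198 at Atp5b with a median of 59.9, a 6.37-fold range in place of the 43.8-fold range of RPKM, and Ndufs4, the only widespread gene under 1 RPKM, lay at the median.

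**Figure D2:**
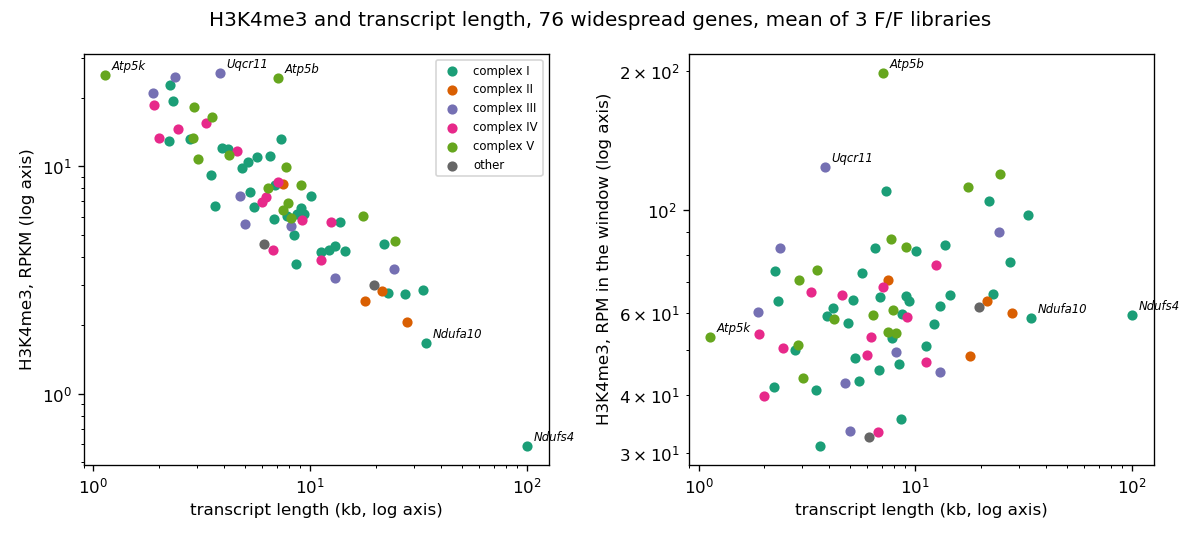
H3K4me3 of the 76 widespread genes against transcript length (x axis, log scale), as RPKM and as RPM in the window (y axes, log scale), each a mean of 3 F/F libraries. RPKM falls with length (Spearman -0.87), and the RPM span 31.1 to 198, with Atp5b and Uqcr11 (124) at the top.

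The tissue-restricted isoforms replace a widespread subunit in given tissues. Cox6a2, Cox7a1, and Cox8b are forms of heart and skeletal muscle, Cox6b2 and Cox8c of testis, and Cox4i2 is known from lung, and Ndufa4l2 is induced by hypoxia. The pairs could thus be compared within the same libraries. The bases upstream of both members are shown for the 4 pairs in which the RefSeq promoter table (assembly GRCm38.p6, which is mm10) holds both, because H3K4me3 is known to follow the CpG content of promoters. Each line gives the 200 bases that end before the start of the transcript, 5′ to 3′ on the strand of the gene, with every CpG in capitals, and a widespread gene is followed by its restricted isoform.
Cox6b1 (chr7:30626152-30626351, minus strand): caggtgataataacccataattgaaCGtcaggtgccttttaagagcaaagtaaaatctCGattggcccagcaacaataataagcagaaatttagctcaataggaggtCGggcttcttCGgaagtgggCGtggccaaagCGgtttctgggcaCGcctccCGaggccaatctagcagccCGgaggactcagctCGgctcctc
Cox6b2 (chr7:4753095-4753294, minus strand): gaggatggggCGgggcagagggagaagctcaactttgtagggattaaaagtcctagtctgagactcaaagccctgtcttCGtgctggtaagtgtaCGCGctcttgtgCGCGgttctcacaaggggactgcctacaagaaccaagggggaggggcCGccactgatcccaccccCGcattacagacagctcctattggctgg
Cox7a2 (chr9:79759854-79760053, minus strand): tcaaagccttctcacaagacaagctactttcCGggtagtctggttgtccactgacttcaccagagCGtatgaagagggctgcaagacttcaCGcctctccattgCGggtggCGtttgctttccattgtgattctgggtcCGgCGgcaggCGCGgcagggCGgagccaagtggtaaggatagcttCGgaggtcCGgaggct
Cox7a1 (chr7:30183971-30184170, plus strand): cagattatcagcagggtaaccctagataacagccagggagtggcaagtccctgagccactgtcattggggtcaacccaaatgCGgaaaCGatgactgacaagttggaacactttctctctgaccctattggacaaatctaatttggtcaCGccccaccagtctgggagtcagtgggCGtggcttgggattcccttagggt
Cox8a (chr19:7217617-7217816, minus strand): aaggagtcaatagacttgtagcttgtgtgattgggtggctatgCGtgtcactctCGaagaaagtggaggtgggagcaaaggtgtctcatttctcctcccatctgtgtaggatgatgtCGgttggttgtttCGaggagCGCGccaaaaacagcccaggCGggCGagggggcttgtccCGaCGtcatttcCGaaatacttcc
Cox8b (chr7:140900447-140900646, minus strand): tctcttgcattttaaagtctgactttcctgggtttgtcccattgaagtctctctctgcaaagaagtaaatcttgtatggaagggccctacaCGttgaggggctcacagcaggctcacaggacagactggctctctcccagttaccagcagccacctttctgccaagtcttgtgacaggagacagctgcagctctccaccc
Cox7b (chrX:106015500-106015699, plus strand): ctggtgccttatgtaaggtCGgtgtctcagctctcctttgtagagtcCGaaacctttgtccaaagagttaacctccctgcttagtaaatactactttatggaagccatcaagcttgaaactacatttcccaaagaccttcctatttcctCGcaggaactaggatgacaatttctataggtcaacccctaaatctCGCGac
Cox7b2 (chr5:71548206-71548405, minus strand): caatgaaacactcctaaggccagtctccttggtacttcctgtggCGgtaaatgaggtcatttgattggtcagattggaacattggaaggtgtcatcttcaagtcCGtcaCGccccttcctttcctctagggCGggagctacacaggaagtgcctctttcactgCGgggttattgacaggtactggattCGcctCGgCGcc

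The restricted member had fewer CpG in 3 of these pairs, with 10 at Cox6b1 and 8 at Cox6b2, 12 at Cox7a2 and 4 at Cox7a1, and 11 at Cox8a and 1 at Cox8b. The order was the opposite in the last pair, with 5 at Cox7b and 8 at Cox7b2. The table held 69 of the 84 genes. Among those it did not list were Atp5a1, Cox4i1, Cox4i2, Cox6a2, Cox6c, Cox8c, Ndufa2, Ndufa4l2, Ndufb9, Ndufs1, Sdhc, Uqcrb, Uqcrc2, and Uqcrq. In its whole window of 250 bases before to 50 after the start, the median was 19 CpG at the 65 widespread genes listed, 8.5 (from 2 to 10) at the 4 restricted isoforms listed, 14 at all 17454 genes listed, and 22 at the genes tested for H3K4me3.

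At Cox6b1, H3K4me3 was 5.45, 5.73, and 5.25 RPKM in FC/FC and 5.34, 6.24, and 5.75 RPKM in F/F libraries, and at Cox6b2 it was 0.905, 0.914, and 0.809 RPKM in FC/FC and 0.718, 0.526, and 0.520 RPKM in F/F libraries. In RPKM the widespread gene was thus higher by 6.25-fold in FC/FC and 9.83-fold in F/F cells. Their transcripts differ in length, with 9178 bp at Cox6b1 and 1303 bp at Cox6b2. Counted as RPM in the window, they held 58.8 and 1.35 in F/F cells. Cox6b2 (chr7:4751792-4753094, minus strand) was the highest of the restricted isoforms in RPKM, and its FC/FC libraries did not overlap with its F/F libraries, but it was below the filter for the test of H3K4me3. Its H3K4me2 was 2.19, 1.95, and 1.34 RPKM in FC/FC and 1.23, 1.16, and 1.35 RPKM in F/F libraries, a log2 fold change of 0.49 (SE 0.16) that did not pass (limma, adjusted p = 0.118). The lowest of these FC/FC values lay within the range of F/F cells.

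At Cox7a2, H3K4me3 was 10.5, 12, and 11.3 RPKM in FC/FC and 10.9, 11.7, and 12.5 RPKM in F/F libraries, and at Cox7a1 it was 0.344, 0.347, and 0.326 RPKM in FC/FC and 0.360, 0.518, and 0.202 RPKM in F/F libraries. The ratio of the pair in RPKM was 33.2-fold in FC/FC and 32.5-fold in F/F cells. Counted as RPM in the window, Cox7a2 (4613 bp) held 65.7 and Cox7a1 (1860 bp) 1.03 in F/F cells. H3K4me1 did not separate them, with libraries of both genes overlapping in either genotype and means of 1.59 RPKM at Cox7a2 and 1.43 RPKM at Cox7a1 in FC/FC cells. Among the restricted isoforms, Cox7a1 was the one with an H3K4me2 peak at its start in all 6 libraries, and it had no H3K4me3 peak there in any. Cox7a2l, another widespread paralog, which acts in the assembly of supercomplexes, had 5.56 ± 0.24 RPKM of H3K4me3 in FC/FC and 5.69 ± 0.23 RPKM in F/F cells.

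Cox8a had 14.7, 13.7, and 15.9 RPKM of H3K4me3 in FC/FC and 14.8, 14.2, and 14.8 RPKM in F/F libraries, and its restricted paralogs lay far below it, Cox8b at 0.216 RPKM in FC/FC and 0.188 RPKM in F/F cells and Cox8c at 0.192 and 0.230 RPKM. Cox7b had 4.22 ± 0.34 RPKM in FC/FC and 4.30 ± 0.33 RPKM in F/F cells, whereas Cox7b2 had 0.0951 and 0.0972 RPKM, the lowest of the 84 genes in both genotypes. Their transcripts differ in length, with 6751 bp at Cox7b and 105383 bp at Cox7b2. Counted as RPM in the window, they held 33.3 and 10.3 in F/F cells, and Cox7b2 was the highest of the restricted isoforms on that scale. At Cox7b2 and Cox8b no peak of any mark lay over the window in any of the 18 libraries. Cox6a1 had 16.1 ± 0.39 RPKM in FC/FC and 15.5 ± 0.65 RPKM in F/F cells, and Cox6a2 had 0.304 ± 0.10 and 0.325 ± 0.053 RPKM, with 1.19 and 1.37 RPKM of H3K4me1.

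H3K4me1 and H3K4me2 peaks, but no H3K4me3 peak, lay over the window of Cox4i2, and no peak of any mark covered its start. Cox4i1 (chr8:120668225-120674209, plus strand) had 7.73, 6.21, and 9.45 RPKM of H3K4me3 in FC/FC and 8.20, 5.78, and 6.97 RPKM in F/F libraries, and Cox4i2 (chr2:152754173-152765037, plus strand) had 0.243, 0.203, and 0.211 RPKM in FC/FC and 0.290, 0.318, and 0.254 RPKM in F/F libraries. For H3K4me1 the order of the pair was reversed, with 1.48, 1.62, and 1.49 RPKM at Cox4i1 and 1.84, 1.75, and 1.63 RPKM at Cox4i2 in FC/FC cells, and 1.55, 1.47, and 1.38 RPKM at Cox4i1 and 2.14, 1.97, and 2.06 RPKM at Cox4i2 in F/F cells. The order was also reversed, without overlap, at Cox6b2 over Cox6b1. Their means were 1.46 and 1.14 RPKM in FC/FC and 1.38 and 1.10 RPKM in F/F cells. In F/F cells Ndufa4l2 lay above Ndufa4 as well (1.76 and 1.25 RPKM), whereas in FC/FC cells their libraries overlapped. Cox6a1, Cox7b, and Cox8a lay above their restricted paralogs without overlap, and Cox7a2 and Cox7a1 overlapped. An H3K4me1 peak lay over the window of Cox4i2 in all 6 libraries, with top scores of 838, 702, and 709 in FC/FC and 1026, 525, and 1146 in F/F cells, and no H3K4me3 peak lay there in any library. An H3K4me2 peak lay there in all 6 libraries of that mark as well, with top scores from 283 to 1245. Of the other restricted isoforms, Cox7a1 had an H3K4me1 peak over its window in 5 of 6 libraries and Ndufa4l2 in 4 of 6, also without an H3K4me3 peak. The H3K4me3 of Ndufa4l2, 0.481, 0.532, and 0.499 RPKM in FC/FC and 0.531, 0.450, and 0.564 RPKM in F/F libraries, had means of 0.504 and 0.515 RPKM, where the medians of all genes were 0.448 and 0.452 RPKM. In F/F cells the log2 difference of H3K4me3 from H3K4me1 at Cox4i2 was -2.48 (SE 0.07, limma without a filter, adjusted p = 1.09e-08), the lowest of the 84 genes.

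**Figure D3:**
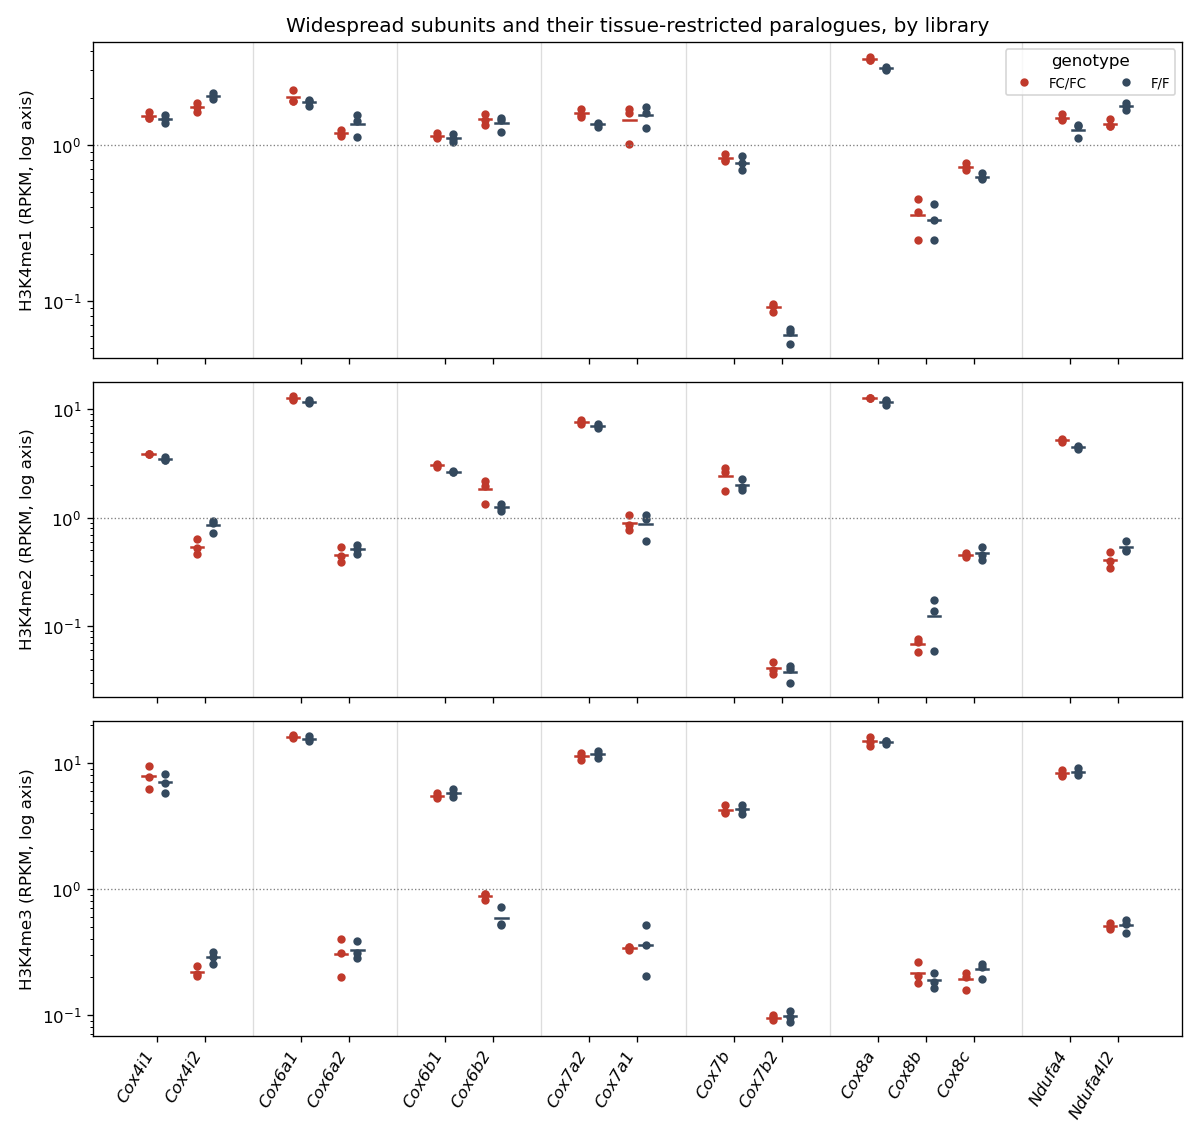
RPKM of H3K4me1, H3K4me2, and H3K4me3 (rows, log axes) at widespread subunits and their restricted paralogs, with 1 point per library, FC/FC left of F/F, bars at the means, and a dotted line at 1 RPKM. For H3K4me3 every restricted isoform lies below its widespread paralog in each library, whereas for H3K4me1 the lowest Cox4i2 library (1.63 RPKM) lies above the highest Cox4i1 library (1.62 RPKM). For H3K4me1, Cox6b2 also lies above Cox6b1 within each genotype, and Ndufa4l2 above Ndufa4 in F/F cells.

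Many of the widespread genes shared their upstream region with another gene. A gene on the opposite strand started within 1000 bp upstream, or with an overlap of up to 200 bp, at 22 of the 84 genes (26.2%), against 10.6% of all 23043 genes, 35.1% of the mitochondrial ribosomal protein genes, and 18% of the proteasome genes, and at none of the 8 restricted isoforms. The starts of Ndufs1 and Eef1b2, a translation elongation factor gene, lay 9 bp apart, those of Sdhd and Timm8b, for a chaperone of mitochondrial import, 52 bp, those of Ndufs3 and Kbtbd4 65 bp, and those of Ndufa7 and Rps28 74 bp. The window of Atp5j held the start of Gabpa, which encodes the DNA-binding subunit of NRF2. The window held another start at 26 of the 84 genes (31.0%), against 17.1% of all genes. The share was 35.1% of the mitochondrial ribosomal protein genes and 18% of the proteasome genes. At the 26 genes, reads of the pair cannot be told apart.

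Promoter motifs of factors known to act on these genes were then counted on both strands of the 300-base window. The NRF1 motif GCGCATGCG occurred at 8 of the 69 genes listed (11.6%), against 2.49% of all genes listed, 4.5% of those tested for H3K4me3, and 10.4% of the mitochondrial ribosomal protein genes listed. The YY1 motif AAGATGGCG occurred at 7 genes (10.1%), against 2.0% of all genes, 3.63% of those tested for H3K4me3, and 11.9% of the mitochondrial ribosomal protein genes, and at 0 when the 50 bases after the start were left out. The ERR motif TCAAGGTCA occurred at 2 genes (2.90%, against 0.304%). The ETS motif CCGGAAG, bound by GABPA and related factors, occurred at 15 genes (21.7%), against 12.1% of all genes, 22.5% of those tested for H3K4me3, and 34.3% of the mitochondrial ribosomal protein genes, and the GC box GGGCGG at 28 (40.6%, against 47.5% and 68.0%). None of the 4 restricted isoforms listed held the NRF1, YY1, ERR, or ETS motif. The GC box and the TATA motif TATAAA each occurred at 2 of these 4 isoforms, and TATAAA at 7 of the 69 genes (10.1%). With only 4 genes, the absence of motifs this uncommon does not set the restricted isoforms apart from all genes. To show the NRF1 and ERR matches in place, 5 of the 6 NRF1 matches and the ERR match that lie before the start are given with up to 10 bases on either side, with the match in capitals (GRCm38.p6, strand of the gene). Atp5g3 holds the ERR motif and the others the NRF1 motif.
Atp5k (chr5:108434431-108434459, minus strand): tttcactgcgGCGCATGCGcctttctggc
Atp5g2 (chr15:102671071-102671099, minus strand): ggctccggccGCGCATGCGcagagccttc
Atp5l (chr9:44920965-44920992, minus strand): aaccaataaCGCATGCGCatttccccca
Cox6a1 (chr5:115349102-115349130, minus strand): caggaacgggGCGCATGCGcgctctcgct
Ndufa11 (chr17:56717692-56717720, plus strand): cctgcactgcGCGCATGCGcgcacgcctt
Atp5g3 (chr2:73911360-73911388, minus strand): tgttacaaagTGACCTTGAgcgtcttccc

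A match is a description of these letters only. The genes shown differ in H3K4me3 RPKM, with 25.0 at Atp5k (1126 bp) and 5.93 at Atp5g2 (8180 bp) in F/F cells. Counted as RPM in the window, these 2 genes were close, at 53.2 and 54.4.

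Peaks at the start of the genes followed the same division. An H3K4me3 peak covered the start of all 76 widespread genes in each of the 3 FC/FC libraries, and of 75 in each of the 3 F/F libraries, with Ndufa13 covered in 2 of 3. Of the 8 restricted isoforms, Cox6b2 had an H3K4me3 peak at its start in 1 FC/FC library, and none had one in F/F cells. Over the 84 genes the share with an H3K4me3 peak was 90.9% ± 0.687 in FC/FC and 90.1% ± 0.687 in F/F cells (SD, n = 3 each, exact two-sided permutation p = 0.6), against 52.7% and 52.1% over all genes. These peaks had a median width of 2913 ± 150 bp in FC/FC and 2902 ± 147 bp in F/F cells (n = 3 each, exact permutation p = 1.0). With 3 libraries against 3, the smallest p of this test is 0.1.

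H3K4me1 peaks lay beside the start rather than over it. At the widespread genes the share with an H3K4me1 peak was highest 650 bp upstream and 1350 bp downstream of the start in FC/FC cells, at 59.6% ± 4.98 and 85.5% ± 1.32 (SD, n = 3), where F/F cells had 43.9% ± 9.96 and 73.2% ± 7.71. In F/F cells it was highest 900 bp upstream and 1400 bp downstream, at 45.6% ± 6.08 and 74.1% ± 7.93. Each FC/FC library of H3K4me1 had more reads in transcripts than any F/F library, and peak calls and scores depend on depth. Depth and genotype thus cannot be told apart in these shares. The shares at these distances were not computed over all genes. It fell to 6.14% ± 0.760 in FC/FC and 5.26% ± 0 in F/F cells at 150 bp downstream of the start. A peak covered the start itself at 15, 17, and 19 of the 84 genes in the FC/FC libraries and at 7, 10, and 15 in the F/F libraries, with an overlap of the genotypes at 15. As a share this was 20.2% ± 2.38 in FC/FC and 12.7% ± 4.81 in F/F cells (exact permutation p = 0.2, n = 3 each). The share over all genes was 17.1% in FC/FC and 16.3% in F/F cells. When only peaks with a score of at least 100 were used, the shares were 12.7% ± 1.82 in FC/FC and 6.35% ± 1.37 in F/F cells (exact permutation p = 0.1, n = 3 each), and 12.6% and 12.1% over all genes. With the same number of peaks from each library they were 17.5% ± 3.83 and 8.33% ± 3.57 (exact permutation p = 0.1, n = 3 each), and 15.4% and 14.4% over all genes. A peak within 1 kb of the start was found at 84.1% ± 1.82 of the genes in FC/FC and 80.2% ± 3.00 in F/F cells (exact permutation p = 0.2, n = 3 each), and at 53.3% and 49.5% of all genes.

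Among single genes, the start of Cox5b and that of Uqcr11 lay under an H3K4me1 peak in each FC/FC library, 3 of 3, and in 0 of 3 F/F libraries. This pattern was seen at 2 of the 84 genes (2.38%) and at 58 of all 23043 genes (0.252%), and the reverse at 0 of the 84 and 29 of all genes (0.126%). Their H3K4me1 level over the window differed less, with 2.75, 2.49, and 2.60 RPKM in FC/FC and 2.30, 2.40, and 2.07 RPKM in F/F libraries at Cox5b (log2 fold change 0.21, SE 0.07, limma adjusted p = 0.121), and 3.69, 4.22, and 3.76 RPKM in FC/FC and 3.58, 3.58, and 3.39 RPKM in F/F libraries at Uqcr11 (0.14, SE 0.06, adjusted p = 0.197). FC/FC libraries were above F/F libraries at both genes, and neither passed the test. These 2 genes were picked after their peaks had been seen.

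**Figure D4:**
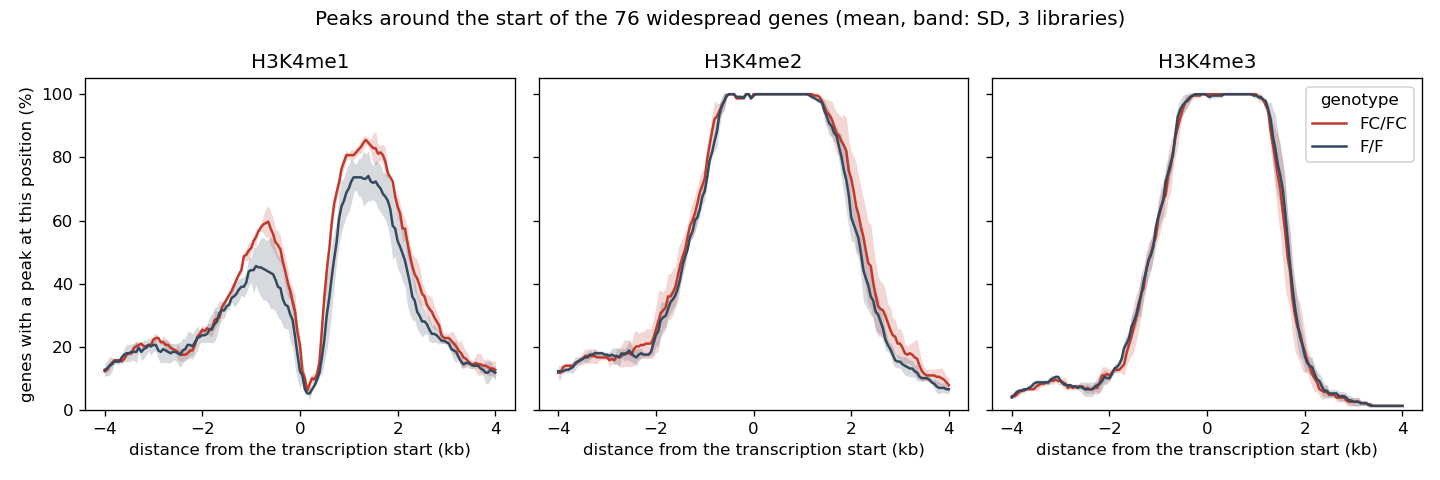
Share of the 76 widespread genes with a peak (y axis, percent) by distance from the transcription start (x axis, kb; negative is upstream) for H3K4me1, H3K4me2, and H3K4me3 in FC/FC and F/F cells. Lines are means and bands the SD of 3 libraries. H3K4me3 covers the start in nearly all genes of both genotypes, and H3K4me1 dips to 6.14% in FC/FC and 5.26% in F/F cells just after it.

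The main comparison asked whether loss of MLL2 changed these marks at the genes of oxidative phosphorylation. No change in H3K4me3 was called at the 75 members tested (limma, adjusted p under 0.05). Of 9073 genes tested, 0.0% were called in either direction. The 9 members below the filter, Ndufs4 and the 8 restricted isoforms, were not tested. At an unadjusted p under 0.05 there were 0 members in either direction, against 1.71% of all genes higher and 2.01% lower, and by limma-voom on the recovered reads 0 genes were called as well (0.0%). The median log2 fold change was 0.01 over the members and 0.01 over all genes, and the members ranged from -0.09 to 0.15, with 42 of 75 positive (28 after quantile normalization), against 57.8% of all genes. The 95% interval of the change lay within 0.5 on the log2 scale in either direction at 74 of the 75. The smallest p belonged to Ndufa7, for an accessory subunit of complex I, at -0.09 (SE 0.06, adjusted p = 0.990), with 5.35, 5.63, and 5.08 RPKM in FC/FC and 5.46, 5.86, and 5.81 RPKM in F/F libraries. On the higher side, Ndufa1 was at 0.09, Uqcrc1, for a core protein of complex III, at 0.10, and Ndufv1 at 0.07. Among the 75 members tested, only Sdha showed no overlap of the libraries (lower in FC/FC, against 3.87% of all genes, with 0 members higher against 3.39%), with 2.06, 2.01, and 2.03 RPKM in FC/FC and 2.07, 2.07, and 2.08 RPKM in F/F libraries, a log2 fold change of -0.03.

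H3K4me2 was slightly higher in FC/FC cells over nearly all of the members, with no member called when all libraries were used. Of the 9986 genes tested, 0.581% were called higher and 1.54% lower, and of the 75 members tested 0 were called in either direction. The log2 fold change was positive at 75 of 75 members (67 after quantile normalization), with a median of 0.13 and a range of 0.02 to 0.49, where 75.0% of all genes were positive, with a median of 0.07. Without the filter, the median log2 level of the oxidative phosphorylation genes differed by 0.128 (FC/FC minus F/F). The same difference was 0.137 for mitochondrial ribosomal protein genes, 0.152 for proteasome genes, and -0.034 for all genes. The shift was thus not particular to this pathway. At 44 members (against 27.2% of all genes) the genotypes did not overlap and FC/FC cells were higher, and at 0 members (against 8.43%) they were lower. At an unadjusted p under 0.05, 43 members were higher (against 21.4%) and 0 lower (against 7.62%). Centring on library medians reduced this difference, with a median of 0.08 over the members and 0.02 over all genes, and with 71 of 75 members positive against 58.1% of all genes. The members of smallest p were Atp5j, Atp5h, and Ndufa2. Atp5h, a subunit of the stalk of ATP synthase, had 7.13, 7.63, and 7.10 RPKM in FC/FC and 6.45, 6.21, and 6.24 RPKM in F/F libraries, a log2 fold change of 0.21 (SE 0.05, limma adjusted p = 0.0685).

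Without NGS-6282, which left 2 FC/FC libraries, 39 of the 75 members were called higher for H3K4me2 and none lower. Of all 9886 genes, 21.4% were called higher and 8.56% lower. When any other single H3K4me2 library was left out instead, 0 genes were called higher. The calls without NGS-6282 were spread over the complexes, with 15 of 34 tested in complex I, 2 of 3 in complex II, 5 of 8 in complex III, 8 of 13 in complex IV, and 9 of 15 in complex V. Mitochondrial ribosomal protein genes were called higher at 31 of 73 and proteasome genes at 16 of 41. The largest change among members called was at Cox7c, a small subunit of complex IV, with 4.92 and 5.33 RPKM in the 2 other FC/FC libraries and 3.48, 4.07, and 3.56 RPKM in the F/F libraries (log2 fold change 0.46, SE 0.07, limma adjusted p = 0.00926). In NGS-6282 it had 3.37 RPKM, below all of the F/F libraries. Cox7b (0.45, adjusted p = 0.0143), Uqcrb (0.37, adjusted p = 0.0136), Uqcrh (0.28, adjusted p = 0.00926), and Uqcrfs1 (0.27, adjusted p = 0.0158), the last 3 of complex III, followed. Among the members with no other start in the window, 22 of 50 were called higher without that library.

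For H3K4me1, 0.0% of the 8566 genes tested were called in either direction, and 0 of the 60 members tested. At an unadjusted p under 0.05, 16 members were higher and 2 lower, against 10% of all genes higher and 15% lower. The genotypes did not overlap at 16 members that were higher (against 11.8%) and 2 that were lower (against 18.7%). The log2 fold change was positive at 49 of 60 members with a median of 0.10, whereas 49.0% of all genes were positive with a median of -0.003. The 16 higher members were widespread genes, and both lower members were restricted isoforms. Genes for assembly factors of the complexes had a median of 0.18 over 21 tested, mitochondrial ribosomal protein genes 0.09 over 47, and proteasome genes 0.09 over 25. The number of genes called for this mark varied with the tool. Limma-voom on the recovered reads called 119 genes higher (1.39%) and 588 lower (6.86%), among them 1 member higher, Ndufs3, and 2 lower, Cox4i2 and Ndufa4l2. Ndufs3 had passed the filter through its FC/FC libraries alone, so its direction was set by the filter. After quantile normalization, 0.198% of genes were called higher and 0.806% lower, with 1 member in each direction, Cox8a and Ndufa4l2, and after centring 0.187% and 0.829%, with 0 members higher and 1 lower.

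Ndufs3, for a core subunit of complex I (chr2:90894636-90904721, minus strand), had 1.26, 1.24, and 1.08 RPKM of H3K4me1 in FC/FC and 0.945, 0.998, and 0.916 RPKM in F/F libraries, a log2 fold change of 0.30 (SE 0.07, limma adjusted p = 0.0780). Its F/F libraries were all below 1 RPKM, so Ndufs3 passed the filter through FC/FC libraries alone. Its direction and its lack of overlap were thus set by the filter. Ndufa4l2 (chr10:127514939-127517156, plus strand) had 1.47, 1.31, and 1.31 RPKM in FC/FC and 1.86, 1.76, and 1.66 RPKM in F/F libraries (-0.35, SE 0.07, adjusted p = 0.0669). Cox4i2 stood at -0.23 (SE 0.06, adjusted p = 0.0904) with the values given above. The genotypes did not overlap at any of these 3 genes. The window of Ndufs3 also holds the start of Kbtbd4. At Cox4i2 the FC/FC libraries were also below all F/F libraries for H3K4me2, with 0.634, 0.469, and 0.521 RPKM in FC/FC and 0.931, 0.729, and 0.900 RPKM in F/F libraries, and for H3K4me3, both under the filter for the test. Cox8a (0.20, adjusted p = 0.0821) and Ndufb2 (0.21, adjusted p = 0.0896) came next on the higher side.

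**Figure D5:**
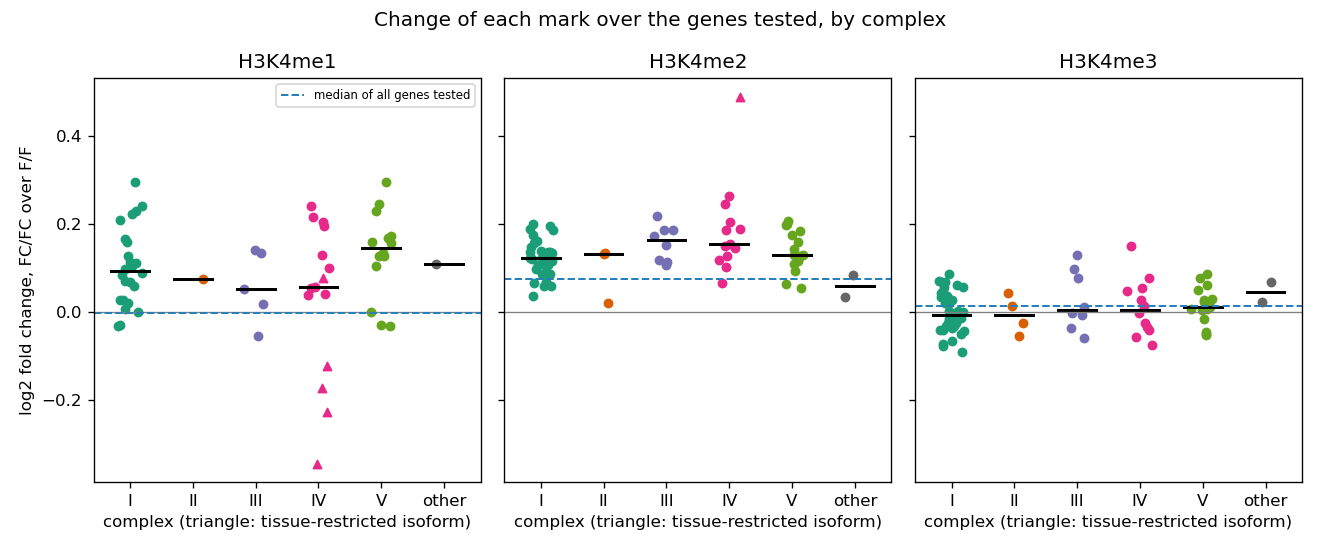
Log2 fold change of FC/FC over F/F cells (y axis) for H3K4me1, H3K4me2, and H3K4me3 at the members tested, by complex, with restricted isoforms as triangles and a dashed line at the median of all genes tested. H3K4me2 is above 0 at all 75 members (71 after centring and 67 after quantile normalization), H3K4me3 stays between -0.09 and 0.15, and for H3K4me1 the lowest points are Ndufa4l2 (-0.35) and Cox4i2 (-0.23).

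With all libraries used, the genes around the pathway gave no call by limma between FC/FC and F/F cells. None of the assembly factors (21 tested for H3K4me1, 36 for H3K4me2, and 35 for H3K4me3), of the genes for electron carriers (2, 3, and 3), of the regulators of mitochondrial biogenesis (8, 10, and 9), or of the tricarboxylic acid cycle genes (8, 10, and 12) passed the test in any mark. Limma-voom called 1 assembly factor and 1 regulator lower for H3K4me1 and 1 assembly factor higher for H3K4me2. Without NGS-6282, H3K4me2 was called higher at 13 of 35 assembly factors, 2 of 10 tricarboxylic acid cycle genes, 1 of 3 electron carriers, and 2 of 9 regulators, and lower at 1 assembly factor and 1 regulator, where 21.4% of all genes were called higher and 8.56% lower.

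In F/F cells without a filter, H3K4me3 exceeded H3K4me1 at 36 of 41 assembly factors, 12 of 13 tricarboxylic acid cycle genes, 4 of 5 electron carriers, and 10 of 12 regulators, and lay below it at 4, 1, 1, and 2 of them, where 43.7% of all genes were called higher and 41.3% lower. These counts moved with the scaling. Among the genes above the filter, tricarboxylic acid cycle genes went to 6 higher and 2 lower of 11 after centring, against 11 and 0, and regulators to 7 higher and 4 lower of 11, against 9 and 2.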

How the data were processed

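Of 52 samples, 18 H3K4me1, H3K4me2, and H3K4me3 libraries were used, and 34 were not used here. Reads, with bases from CASAVA 1.4, were aligned by the authors with BWA 0.7.10 to mm10. The deposited RPKM cover RefSeq transcripts with 500 bp added at either end and are scaled to the reads in the listed transcripts. The deposited MACS 1.4.2 peaks were called per library with H3 as control, and their score is the negative log10 of the p-value, multiplied by a constant, which depends on depth. A column of the authors' own comparison of damaged genes was not used.

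Transcripts under 250 bp were left out and the longest was kept per gene. Genes with RPKM above 1 in at least 3 libraries were tested on log2(RPKM + 0.1), with the libraries of the 2 groups compared and no covariate, in limma 3.58.1 (R 4.3.3) with a trend and Benjamini-Hochberg adjustment over all genes tested. A fold change on this scale understates the change of low genes. Reads were recovered from the RPKM (100% of values whole within 0.01 read). The test was run on simulated data with 200 changed genes per mark. Peak shares were compared by exact two-sided permutation over libraries. Python 3.11.15, numpy 2.4.6, pandas 2.3.3, scipy 1.17.1, and matplotlib 3.10.9 were used. Promoters came from RefSeq (GRCm38.p6).

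The members and lists were chosen with earlier results of these data known. Genes named were those that passed (up to 10 per mark) or else the 3 of smallest p in each direction, the isoform pairs, the 5 highest and 5 lowest for H3K4me3, the defining subunits, and those without an H3K4me3 peak at the start in F/F cells. Names outside this rule (Cox5b and Uqcr11 for their peaks, neighbors, motif matches, and exceptions to a scaling) were chosen after their values were seen. Alternatives were other pseudocounts, no filter, other scalings, limma-voom, peak settings, a block by H3 library between marks, and leaving out each library. The restriction to genes with no other start in the window was chosen after seeing the data.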

Additional observations from a re-analysis of the deposited data

How the results depend on the processing

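No paired analysis was possible because no label pairs an F/F with an FC/FC library. For H3K4me1, genes called higher and lower were 16 and 71 after centring on library medians, 119 and 588 by limma-voom, and 17 and 69 after quantile normalization, with members at 0 and 1, 1 and 2, and 1 and 1. For H3K4me2, genes called higher and lower were 27 and 406 after centring, 108 and 262 by limma-voom, and 26 and 312 after quantile normalization, and 383 were lower without a filter. For H3K4me3 the median change of the members was -0.010 after quantile normalization and -0.007 after centring. For H3K4me3 over H3K4me1 in F/F cells, the median of the members was 1.65 after centring, 1.13 after quantile normalization, 1.89 with a pseudocount of 1, and 2.26 at genes with no other start in the window, of which 49 were called higher. Without a filter 9506 genes were called lower, and quantile normalization called 8 members lower and moved Cox5a to -0.0207 (limma adjusted p = 0.871). The genotype difference in H3K4me2 peaks within 1 kb of the start was 0.0 percentage points.

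Leaving out 1 library at a time gave, for H3K4me1, a member median of 0.0826 to 0.108 and a difference in peak share of 5.36 to 10.1 percentage points. For H3K4me2 it gave 0 to 2112 genes higher and 0 to 846 lower, a median of 0.1206 to 0.1551, 0 to 39 members higher, and a peak share difference of 0.595 to 1.79, the upper counts being those without NGS-6282. For H3K4me3 it gave 0 to 2 genes lower, a median of -0.0140 to 0.0310, a peak share difference of 0.397 to 0.992, and a width difference of -72.4 to 76.8 bp, which was -72.4 without F/F replicate 1 and -70.5 without FC/FC replicate 2. For H3K4me3 over H3K4me1 it gave 4711 to 7699 genes higher, 778 to 3205 lower, a median of 2.32 to 2.54, 54 to 75 members higher, and 0 to 5 lower. In the last comparison, members left out of these counts had fallen below the filter, which asks for 3 libraries above 1 RPKM. The cause of the other moves was not tested.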
